A study of Mus musculus with 6 samples.

Results

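The steroid hormone receptors described here are the estrogen receptors Esr1 and Esr2, the progesterone receptor Pgr, the glucocorticoid receptor Nr3c1 and the mineralocorticoid receptor Nr3c2. They were taken by gene symbol and make up 5 of the 24411 genes in the count table of the series. Poly(A) RNA from the soleus (Sol), a postural muscle rich in slow fibers, was read in 3 WT and 3 LSD1-mKO mice after voluntary wheel running (VWR), with 1 library per mouse. The study compared the genotypes to find genes under the control of LSD1, a histone demethylase encoded by Kdm1a, in the trained slow muscle.

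Mice of both groups were labelled C57BL/6, were 8 weeks old at the start, lived alone with a running wheel for 38 days and received tamoxifen at 75 mg/kg on 5 days in a row after 3 days of familiarization. They were taken off the wheel and fasted for some hours before the tissue was collected. The paper's methods name male mice for the tamoxifen treatment and give no sex in the section on wheel running. WT mice carried the floxed Lsd1 gene and no CreERT2. LSD1-mKO mice carried the same floxed gene together with the transgene Tg(ACTA1-cre/Esr1*)2Kesr. In the paper's account, the human ACTA1 promoter of this transgene, active in differentiating and mature muscle fibers, drives a CreERT2 recombinase. CreERT2 joins Cre to a mutated ligand-binding part of the estrogen receptor, so that the enzyme enters the nucleus when a tamoxifen metabolite binds. Some features of this design bear on the receptors. Tamoxifen is itself a ligand of the estrogen receptors and was given to both groups, the reads counted for Esr1 can come from the gene or from the receptor part of the transgene, and every mouse that lost LSD1 also carried the transgene. No sedentary mouse and no mouse with the transgene and an intact Lsd1 gene was analysed here.

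Steroid hormone receptors are transcription factors that wait for a hormone. Before hormone arrives, many are held by heat shock chaperones such as Hsp90. The bound receptor pairs up, contacts a short DNA element through its zinc fingers, and recruits coactivators or corepressors through the last helix of its ligand-binding part. In muscle, the glucocorticoid receptor is known for driving protein breakdown during fasting and stress, and estrogen receptor alpha for supporting mitochondrial function and insulin action.

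The zinc finger that touches DNA divides these receptors into those that read the estrogen response element and those that read the element shared by glucocorticoids, progesterone and mineralocorticoids. The stretches below, for both estrogen receptors and for Pgr as the example of the other class, are the coding sequence of the first zinc finger, read 5′ to 3′ from GENCODE transcripts of the GRCm38 build. Capitals mark the 3 codons for the residues that tell the DNA elements apart.
Esr1: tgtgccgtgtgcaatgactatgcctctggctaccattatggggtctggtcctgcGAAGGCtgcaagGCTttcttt
Esr2: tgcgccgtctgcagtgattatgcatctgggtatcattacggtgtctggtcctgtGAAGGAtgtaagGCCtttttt
Pgr: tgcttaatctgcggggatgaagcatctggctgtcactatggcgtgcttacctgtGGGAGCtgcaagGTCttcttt
They lie in coding exons at chr10:4746717-4746791 on the plus strand for Esr1, chr12:76165465-76165539 on the minus strand for Esr2 and chr9:8903657-8903731 on the plus strand for Pgr. Esr1 and Esr2 shared 61 of the 75 bases (81.3%), and their 3 marked codons encode the same residues. Pgr shared 47 bases with Esr1 (62.7%) and 50 with Esr2 (66.7%), and none of the 3 residues.

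The ligand-binding part is the piece of the estrogen receptor that CreERT2 carries. Its last helix, which moves when tamoxifen rather than estradiol is bound, is shown for both estrogen receptors as in the native mouse genes. The mutated copy in the transgene may differ from the stretch shown, also within the capitals. Capitals are on the codons of the leucine-rich core that the native receptors have in common.
Esr1 helix: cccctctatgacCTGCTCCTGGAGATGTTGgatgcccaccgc
Esr2 helix: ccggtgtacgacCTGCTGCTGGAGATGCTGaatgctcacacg
These lie at chr10:5001238-5001279 on the plus strand and at chr12:76121826-76121867 on the minus strand, and 31 of their 42 bases (73.8%) are the same. Among all windows of 75 bases in the annotated transcripts, 0 of 3435 for Esr2, 0 of 8470 for Pgr and 0 of 7822 for Nr3c1 occurred in a transcript of another gene. For Esr1, 21 of 13722 windows (0.153%) occurred in a Ppp2r5a transcript, and for Nr3c2, 99 of 6685 (1.481%) occurred in Gm10649. Gm10649 had at most 6 counts in any library. The sequence of the transgene was not used here, and the count table holds 1 value per gene with no position along it.

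The libraries held from 8940206 to 10989846 estimated counts in WT and from 10984664 to 13798059 in LSD1-mKO. Kdm1a was lower in LSD1-mKO, with 14.6, 16.6 and 16.6 TMM-normalized counts per 1000000 (CPM) against 40.5, 38.2 and 33.6 in the WT mice, values of single mice being listed here and below in the order of replicates 1 to 3. The log2 fold change was -1.23 (adjusted p = 0.0160, edgeR). The call was lost with the replicate number as a block (adjusted p = 0.299, edgeR) and without WT replicate 2 (0.116) or LSD1-mKO replicate 1, 2 or 3 (0.111, 0.143 and 0.209). Acta1, the mouse gene whose human counterpart lends its promoter to the transgene, was the most abundant transcript in every library. It differed by -0.083 on the log2 scale, with a standard error (SE) of 0.20. The 7 slow fiber markers summed to between 32200 and 41900 CPM, with slow myosin Myh7 at 13800 CPM in WT and 13400 CPM in LSD1-mKO, and fast myosin Myh2 of type IIA fibers was at 21700 and 18300 CPM. No other muscle was analysed here, so these levels have no reference to set them against.

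Of the 5 receptors, Esr1 differed between the genotypes, Nr3c1 and Nr3c2 did not pass the test, Pgr was too low to be tested and Esr2 had no count in any library. Esr1 encodes estrogen receptor alpha and spans chr10:4611593-5005614 of GRCm38 on the plus strand. Its counts were 199, 271 and 209 in the WT mice and 4071, 6371 and 4596 in the LSD1-mKO mice, all whole numbers. After scaling by depth these were 24.0, 24.4 and 18.6 CPM in WT and 301, 461 and 428 CPM in LSD1-mKO. The groups did not overlap, and the lowest LSD1-mKO mouse was 12.3 times the highest WT mouse. LSD1-mKO replicate 1 was the lowest of its group.

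The means were 22.3 ± 3.25 CPM (SD, n = 3) in WT and 397 ± 84.4 CPM (SD, n = 3) in LSD1-mKO. The log2 fold change was 4.15 (SE 0.20, adjusted p = 1.95e-04, edgeR's quasi-likelihood test with Benjamini-Hochberg adjustment over 12828 genes). The 95% confidence interval ran from 3.71 to 4.60, or from 13.0-fold to 24.3-fold. Among the 3 receptors tested 1 was called higher and 0 lower, while among all genes tested 0.0156% were called, 0.0078% higher and 0.0078% lower, or 1 gene in each direction. The exact permutation test of the 6 CPM values gave p = 0.1, the smallest that 3 mice against 3 allow (2-sided). Esr1 was also the 1 receptor of the 3 whose groups did not overlap. Of all genes tested 12.7% did not overlap, 6.62% with LSD1-mKO above WT. By its rank in the library, Esr1 moved from place 5619, 5624 and 6589 among all genes in the WT mice to place 448, 259 and 303 in the LSD1-mKO mice. Its log2 fold change was the largest of all genes tested with a mean of at least 5 CPM, followed by Hba-a1 at 3.95 (adjusted p = 0.684, edgeR), a hemoglobin gene whose difference did not pass the test.

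What part of the Esr1 reads came from the transgene was not tested. The loss of LSD1 and the presence of the transgene always came together, so their shares in the difference cannot be told apart. In whole muscle, more RNA per cell and more cells of a kind that holds the RNA also cannot be told apart. The summed markers of fibroblasts, adipocytes, endothelial, immune, smooth muscle, Schwann, satellite and red blood cells overlapped between the genotypes. Those of slow fibers and of muscle fibers in general did too, so that all 10 marker lists overlapped. With 3 mice in each group, overlap does not show that the cell make-up was alike. The part of cell make-up in the Esr1 difference was not tested. The levels of Ppp2r5a, with which Esr1 shares its few windows, were from 113 to 127 CPM in WT and from 128 to 136 CPM in LSD1-mKO.

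**Figure D1:**
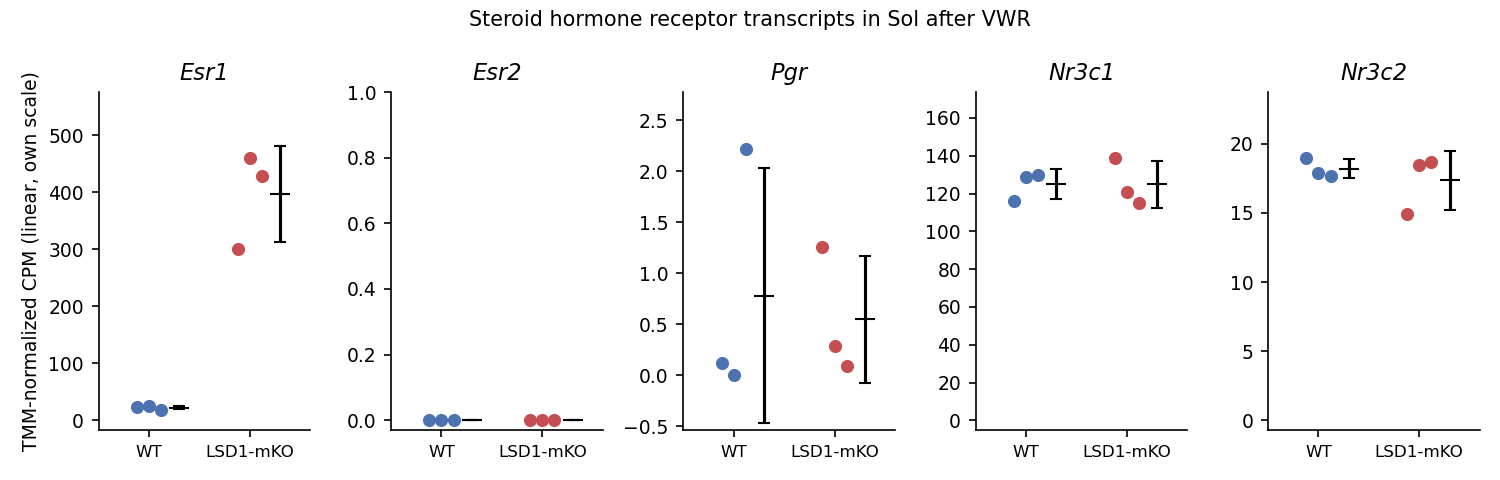
TMM-normalized counts per 1000000 of the 5 receptors in each mouse, each panel on its own linear scale, with WT in blue, LSD1-mKO in red and black bars for the mean ± SD of 3 mice. The 3 LSD1-mKO mice sit between 301 and 461 CPM for Esr1, above every WT mouse, while the groups overlap for Nr3c1, Nr3c2 and Pgr and every value of Esr2 is 0.

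Esr2 encodes estrogen receptor beta and lies on chromosome 12 from 76120419 to 76177259. It had 0 counts in all 6 libraries. A count of 0 allows up to 3 counts, or 0.0437 per 1000000 over the 68643100 counts of the 6 libraries together, and from 0.217 to 0.336 per 1000000 in a single library. Transcripts of estrogen receptor beta were not detectable at this depth, and no comparison of the genotypes was possible. These limits, like the intervals on counts below, cover counting error only, since amplified reads are not independent molecules.

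Pgr encodes the progesterone receptor, whose gene is induced by estrogen receptor alpha in reproductive tissue, and lies on chromosome 9 from 8899833 to 8968611. It had 1, 0 and 25 counts in the WT mice and 17, 4 and 1 counts in the LSD1-mKO mice. The highest and the lowest mouse were both WT, and 25 of the 26 WT counts came from WT replicate 3. The group sums correspond to 0.858 per 1000000 in WT (exact 95% Poisson interval 0.561 to 1.26) and to 0.574 per 1000000 in LSD1-mKO (22 counts, 0.360 to 0.869). The gene did not pass the filter on low counts and has no adjusted p. Without the filter its log2 fold change was -0.51 with an SE of 1.01.

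Nr3c1 encodes the glucocorticoid receptor and lies on chromosome 18 from 39410545 to 39519421. It measured 116, 129 and 130 CPM in the WT mice and 139, 121 and 115 CPM in the LSD1-mKO mice. The highest and the lowest mouse were both LSD1-mKO. The means were 125 ± 7.73 CPM in WT and 125 ± 12.6 CPM in LSD1-mKO (SD, n = 3 each). The log2 fold change was 0.003 (SE 0.099, adjusted p = 0.996, edgeR), and its 95% confidence interval of -0.22 to 0.23 leaves room for a change from 0.856-fold to 1.17-fold.

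Nr3c2 encodes the mineralocorticoid receptor, which binds aldosterone and, where no enzyme removes them, glucocorticoids, and lies on chromosome 8 from 76899442 to 77245012. It measured 19.0, 17.9 and 17.7 CPM in the WT mice and 14.9, 18.5 and 18.7 CPM in the LSD1-mKO mice. LSD1-mKO replicate 1 was the lowest of the 6 mice, and the other LSD1-mKO mice lay within the WT range. The means were 18.2 ± 0.731 CPM and 17.4 ± 2.11 CPM (SD, n = 3 each). The log2 fold change was -0.068 (SE 0.12, adjusted p = 0.933, edgeR) with a 95% confidence interval of -0.34 to 0.21, or 0.787-fold to 1.16-fold.

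To set the receptors beside each other, counts were divided by transcript length and written as transcripts per 1000000 (TPM), with the length of the native gene used for every read. In WT, Nr3c1 was the most abundant of the 5, at 36.8, 47.6 and 45.4 TPM. Esr1 followed at 7.74, 9.15 and 6.60 TPM and Nr3c2 at 6.58, 7.20 and 6.73 TPM, so that these neighbours in the order overlapped. Pgr stayed under 1 TPM in every mouse, at most 0.726. With the coding length in place of the transcript length, Esr1 had a mean of 13.3 TPM and Nr3c2 of 6.58 TPM in WT, so the distance between them depends on the length used.

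In LSD1-mKO, the reads counted for Esr1 came to 104, 161 and 150 TPM, the highest of the 5. These reads can include the transgene, whose transcript length was not known. This level and the ratios and shares below may therefore not be those of a receptor transcript. Nr3c1 came next at 47.4, 41.6 and 39.5 TPM and Nr3c2 was at 5.54, 6.90 and 7.01 TPM. The order of Esr1 and Nr3c1 was thus opposite in the genotypes in every mouse, with Esr1 at 0.183 ± 0.0335 times Nr3c1 in WT and at 3.28 ± 0.940 times in LSD1-mKO (SD, n = 3 each). Esr1 took 15.1%, 14.3% and 11.1% of the TPM of the 5 receptors in the WT mice and 66.1%, 76.8% and 76.3% in the LSD1-mKO mice. The sum of the receptors other than Esr1 was 50.4 ± 6.10 TPM in WT and 49.5 ± 3.49 TPM in LSD1-mKO, which differed by less than the spread between mice. The ratio of Nr3c1 to Nr3c2, the receptors that share glucocorticoids as ligands, was 6.31 ± 0.629 in WT and 6.74 ± 1.58 in LSD1-mKO.

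**Figure D2:**
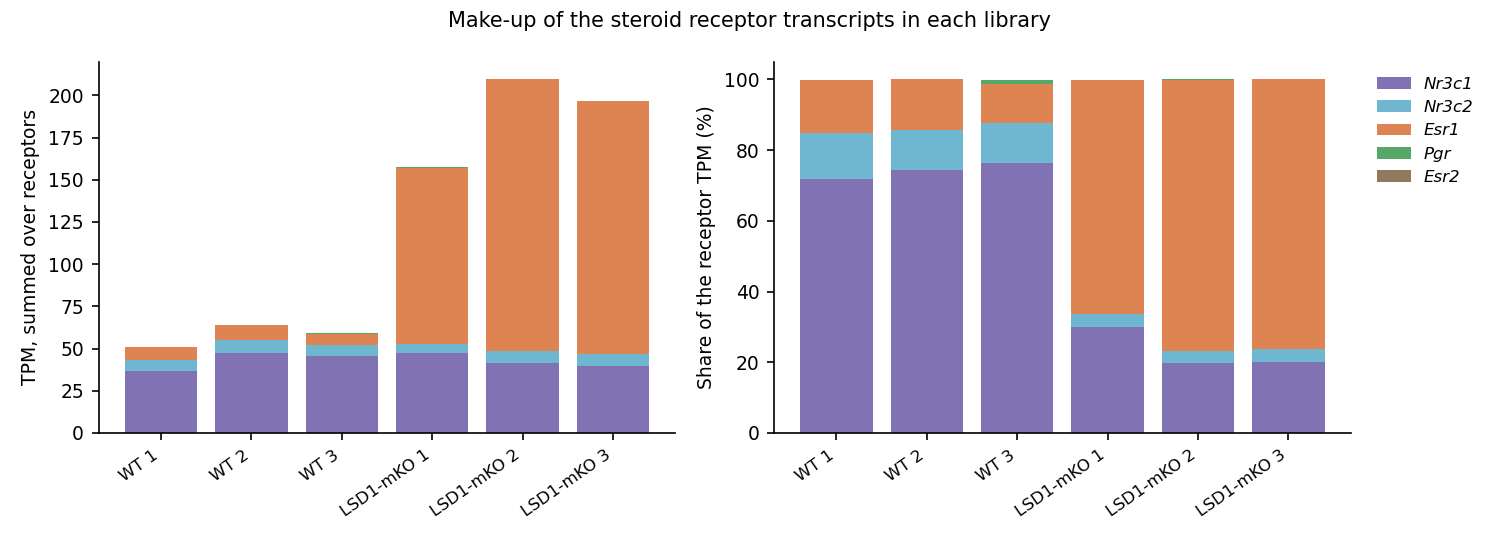
Transcripts per 1000000 (TPM) of the 5 receptors in each library, stacked and summed on the left and as a share of the sum in percent on the right. Esr1 makes up 11.1% to 15.1% of the sum in WT and 66.1% to 76.8% in LSD1-mKO, where its reads can include the transgene. The receptors other than Esr1 sum to between 43.4 and 54.8 TPM in the WT libraries and between 46.6 and 53.4 TPM in the LSD1-mKO libraries.

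The estrogen-related receptors Esrra, Esrrb and Esrrg belong to the same family (NR3) and are orphan receptors that do not bind estradiol. All 3 were tested, and edgeR called none of them. At an unadjusted p under 0.05 there were 2, Esrrb and Esrrg, both higher, where 3.52% of all genes tested were. DESeq2 called 1, Esrrg, and 0.327% of all genes tested. Esrrg encodes ERRγ, a factor of the oxidative fiber program, and measured 147, 125 and 116 CPM in the WT mice and 267, 208 and 282 CPM in the LSD1-mKO mice, without overlap. Its log2 fold change was 0.96 (SE 0.14, adjusted p = 0.162 with edgeR and 1.82e-06 with DESeq2). Esrrb was at 0.47 (SE 0.12, adjusted p = 0.534, edgeR), also without overlap. With Esrrg, 2 of the 3 were higher without overlap, where 6.62% of all genes tested were.

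Esrra, the most abundant of the relatives in WT by CPM and by TPM, had a log2 fold change of -0.031 (SE 0.12). The confidence interval of Esr1, which began at 3.71, lay above those of these 3 relatives, the highest of which, for Esrrg, ended at 1.28.

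**Figure D3:**
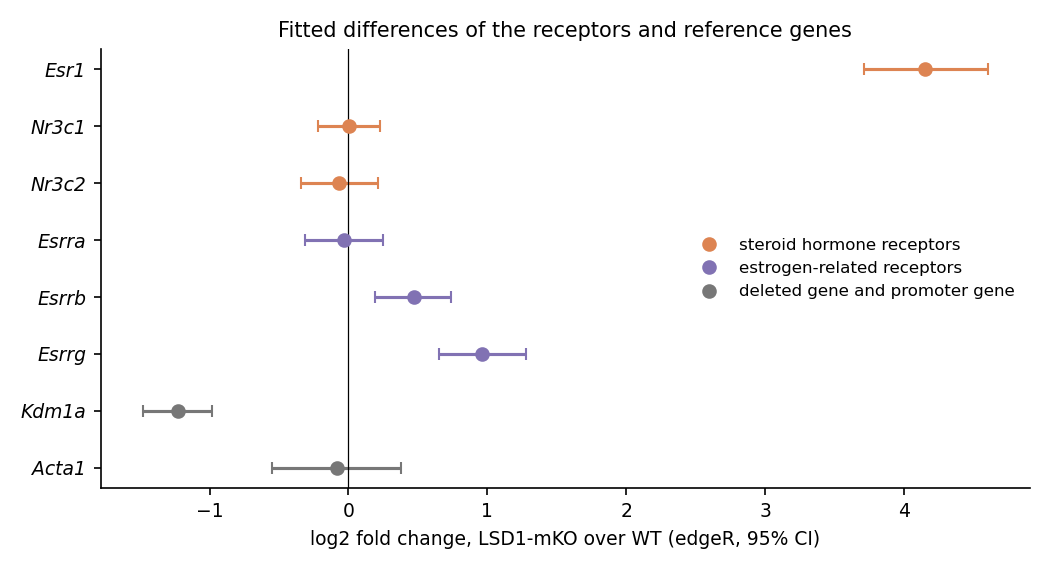
Fitted log2 fold change of LSD1-mKO over WT for the 3 receptors tested, the 3 estrogen-related receptors, Kdm1a (deleted gene) and Acta1 (promoter gene). Bars are 95% confidence intervals derived from edgeR's test. Esr1 is at 4.15, Nr3c1 and Nr3c2 span 0, and Esrrg is at 0.96.

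Esr1 was compared with the genes that surround it on chromosome 10, 5 on each side in the count table. Of these 10 genes 8 were tested and none was called by edgeR. Their log2 fold changes ran from -0.44 to 0.38 with a median of -0.096, 3 higher and 5 lower. An unadjusted p under 0.05 was found for 2 of the 8, against 6.40% of all genes tested, and 3 of the 8 did not overlap between the groups, against 12.7%. The nearest, Syne1, which encodes a protein that anchors nuclei in the fiber, lies 15.3 kb beyond Esr1 and measured 108 ± 6.46 CPM in WT and 117 ± 10.7 CPM in LSD1-mKO (SD, n = 3 each). On the other side the nearest, Ccdc170, 49.4 kb away, was below 1 CPM and was not tested. Zbtb2, a zinc finger repressor, was lower in every LSD1-mKO mouse (log2 fold change -0.44, SE 0.13, adjusted p = 0.584, edgeR), and Armt1 was higher in every one (0.38, SE 0.14, adjusted p = 0.709, edgeR).

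**Figure D4:**
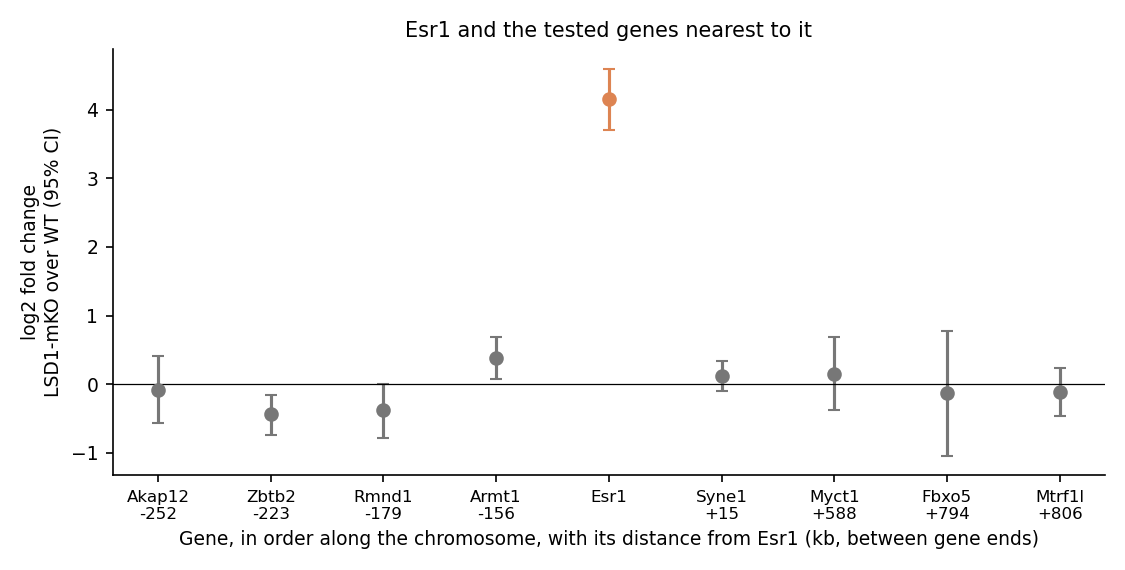
Fitted log2 fold change of LSD1-mKO over WT for Esr1 in orange and the 8 tested neighbours in grey. Bars are 95% confidence intervals derived from edgeR's test. The genes are in their order along the chromosome, with the distance in kb. The neighbours lie between -0.44 and 0.38, and Esr1 is at 4.15.

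The genes that estrogen receptors are known to induce in other tissues were taken as a list of 12, of which 9 were tested. None was called by edgeR or DESeq2, 4 were fitted higher and 5 lower, and the median log2 fold change was -0.003, against -0.0202 for all genes tested. At an unadjusted p under 0.05 there were 2, against 6.40% of all genes tested. Nrip1, a corepressor that estrogen induces in breast cells, measured 22.8, 21.5 and 42.2 CPM in WT and 18.3, 13.8 and 17.0 CPM in LSD1-mKO (log2 fold change -0.82, SE 0.26, adjusted p = 0.631, edgeR). WT replicate 3 was the highest of the 6. Pdzk1, a scaffold protein, was at 1.93 ± 0.452 CPM in WT and 2.99 ± 0.485 CPM in LSD1-mKO (SD, n = 3 each), a log2 fold change of 0.64 (SE 0.28, adjusted p = 0.766, edgeR).

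Greb1, a growth regulator that estrogen induces in breast cells, had the lowest log2 fold change of the list, at -0.86 with an SE of 0.62. It ran from 1.08 to 8.08 CPM in WT and from 1.66 to 4.14 CPM in LSD1-mKO, so the groups overlapped. The most abundant estrogen target, the lysosomal protease Ctsd, measured 631 ± 46.1 CPM in WT and 630 ± 29.9 CPM in LSD1-mKO (SD, n = 3 each), with a 95% confidence interval of the log2 fold change from -0.23 to 0.22. Cxcl12, a chemokine, was at 0.20 (SE 0.13) and Igfbp4, which binds insulin-like growth factors, at -0.39 (SE 0.22).

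The list of glucocorticoid receptor targets held 16 genes, all tested. The fitted level was lower in LSD1-mKO for 15 of them and higher for Fbxo32, and the median log2 fold change was -0.449. Of all 12828 genes tested 5801 were fitted higher, and their median was -0.0202. None was called by edgeR or DESeq2. At an unadjusted p under 0.05 there were 4, all lower, against 2.88% of all genes tested in that direction. These were Tsc22d3, which encodes the leucine zipper protein GILZ, the clock gene Per1, the kinase Sgk1 and the transcription factor Cebpd. The summed level of the 16 genes was 4010, 2290 and 3120 CPM in the WT mice and 2460, 2440 and 2870 CPM in the LSD1-mKO mice, so the groups overlapped, with WT at both ends.

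Tsc22d3 measured 386, 325 and 423 CPM in WT and 244, 278 and 307 CPM in LSD1-mKO, without overlap, a log2 fold change of -0.45 (SE 0.13, adjusted p = 0.578, edgeR). Per1 (-0.36, SE 0.12) and Sgk1 (-0.56, SE 0.20) were lower without overlap by a margin smaller than the digits shown, since the lowest WT and the highest LSD1-mKO mouse were both at 111 CPM for Per1 and both at 228 CPM for Sgk1. With these, 3 of the 16 did not overlap, where 6.10% of all genes tested were lower without overlap. Cebpd had the largest fitted difference of the list, at -0.91 (SE 0.26, adjusted p = 0.578, edgeR), and its groups overlapped. Fkbp5, a chaperone partner that glucocorticoids induce strongly, ran from 52.7 to 241 CPM in WT and from 72.1 to 182 CPM in LSD1-mKO. The atrophy ligases Fbxo32 and Trim63, which glucocorticoids raise in wasting muscle, had log2 fold changes of 0.12 (SE 0.20) and -0.12 (SE 0.40). Markers of 2 other cell types also had lower fitted levels, against a median of -0.0202 for all genes tested. All 8 fibroblast markers (median -0.384) and all 4 tested immune markers (median -0.571) were below 0, and none was called by edgeR. The summed fibroblast markers ran from 2260 to 6070 CPM in WT and from 2590 to 4200 CPM in LSD1-mKO, and the summed immune markers from 21.7 to 93.4 CPM and from 26.9 to 60.7 CPM. The part of these cells in the values of the glucocorticoid targets was not tested.

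Of 9 mineralocorticoid receptor targets 6 were tested, 4 of which are also on the glucocorticoid list. None was called by edgeR or DESeq2, 2 were fitted higher and 4 lower, and the median was -0.405, against -0.0202 for all genes tested. At an unadjusted p under 0.05 there were 3, Tsc22d3, Per1 and Sgk1, all lower and all on both lists, against 2.88% of all genes tested in that direction. The epithelial sodium channel subunits Scnn1a, Scnn1b and Scnn1g, the classical targets in kidney, were too low to be tested.

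Among the 16 chaperones and cochaperones that hold and fold the receptors, none was called by edgeR or DESeq2 and none had an unadjusted p under 0.05, with 8 fitted higher, 8 lower and a median of 0.027. The most abundant were Hspa8, at 1500 ± 121 CPM in WT and 1780 ± 192 CPM in LSD1-mKO, and Hsp90ab1, at 1550 ± 237 CPM and 1700 ± 234 CPM (SD, n = 3 each). Hsp90aa1, the stress-induced form, had a log2 fold change of 0.19 (SE 0.092, adjusted p = 0.766, edgeR). Its lowest LSD1-mKO mouse, at 95.7 CPM, was barely above the highest WT mouse, at 95.2 CPM. It was the 1 chaperone of 16 that was higher without overlap, where 6.62% of all genes tested were.

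The 15 coactivators were all tested, with 0 called by edgeR or DESeq2, 0 at an unadjusted p under 0.05 and a median of -0.042. Ppargc1a, which encodes PGC-1α, had a log2 fold change of 0.57 (SE 0.32). This rested on LSD1-mKO replicate 1, at 143 CPM beside 58.3 and 75.5 CPM in the other two, and was 0.11 without it. Of 10 corepressors 8 were tested, with 0 called by edgeR or DESeq2, 1 at an unadjusted p under 0.05 (Nrip1, also an estrogen target), where 6.40% of all genes tested were, and a median of -0.056. Ncor1, the corepressor of many nuclear receptors, was at 0.14 (SE 0.087).

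Of the enzymes and transporters that make or remove steroid ligands, fewer than 10 reached a level that could be tested. Of 19 genes 17 were listed and 8 were tested, with 0 called by edgeR or DESeq2, 0 at an unadjusted p under 0.05 and log2 fold changes between -0.19 and 0.12. Hsd11b1, which regenerates active glucocorticoid, measured 10.3 ± 1.89 CPM in WT and 11.2 ± 0.312 CPM in LSD1-mKO (SD, n = 3 each). Hsd11b2, which inactivates glucocorticoid and thereby shields the mineralocorticoid receptor in kidney, had at most 2 counts in any library. Cyp19a1, the aromatase that makes estradiol, had 0 counts in all 6.

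Of 9 membrane receptors for steroids 7 were tested, with 0 called by edgeR or DESeq2 and a median of 0.046. At an unadjusted p under 0.05 there was 1, Paqr9, which was higher, where 3.52% of all genes tested were. It was also the 1 gene of the 7 that was higher without overlap, where 6.62% of all genes tested were. Paqr9, a member of the progestin and adipoQ receptor family, measured 4.46, 4.77 and 4.00 CPM in WT and 7.40, 6.44 and 8.57 CPM in LSD1-mKO, without overlap (log2 fold change 0.76, SE 0.18, adjusted p = 0.485, edgeR). Gper1, the membrane estrogen receptor, was at 4.81 ± 0.744 CPM and 5.30 ± 1.59 CPM (SD, n = 3 each).

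**Figure D5:**
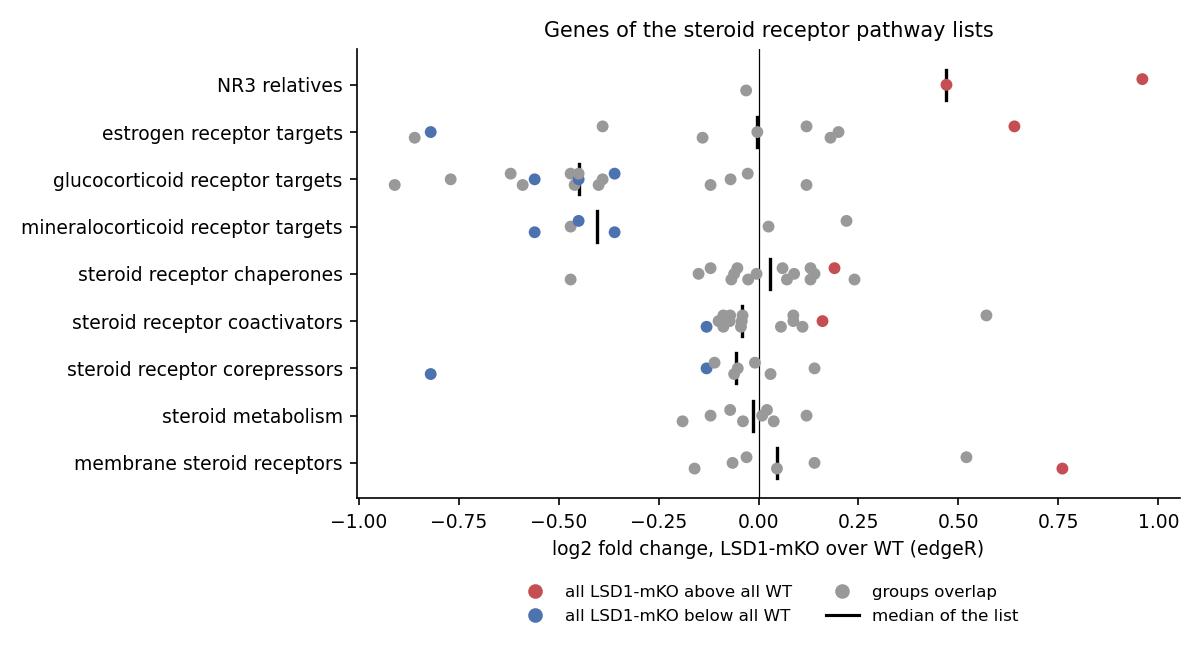
Fitted log2 fold change of LSD1-mKO over WT for every tested gene of the 9 pathway lists, with a black line at the median of each list, red and blue points for genes whose groups do not overlap and grey points for the others. The glucocorticoid receptor targets have a median of -0.449 and 15 of 16 genes below 0, while the chaperones have a median of 0.027. Of all 12828 genes tested 5801 were fitted higher, with a median of -0.0202.

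The genes whose pattern over the 6 libraries was most like that of each tested receptor were found by the root mean square difference of centred log2(CPM + 0.5), among 12664 genes with a mean of at least 1 CPM. For Esr1 the closest were H2-L at a distance of 0.794, Gm5512 at 1.28 and Gm4980 at 1.29, beside the standard deviation of 2.07 of Esr1 itself. The distance counts the size of a difference as well as its pattern. A gene whose change differs in size from that of Esr1 lies far from it even if its order of mice is the same. For H2-L, near 0 in WT, the distance also depends on the 0.5 added to the CPM. Whether genes followed Esr1 in pattern alone was not tested. H2-L, a gene of the major histocompatibility complex, had 0, 0 and 0.35 counts in the WT mice and 39.47, 31.34 and 31.46 in the LSD1-mKO mice. This is at least 26.9-fold higher in LSD1-mKO against a floor of 3 counts over the WT libraries. The adjusted p was 0.0767 in edgeR and ran from 2.77e-05 in DESeq2 to 0.705 in edgeR without LSD1-mKO replicate 3. The gene passed the filter on low counts only through its LSD1-mKO counts and was picked for its likeness to Esr1. These p-values are therefore no independent support for a difference. Its counts are not whole numbers, and since the complex holds many near-identical genes, its level is uncertain. The floxed line is a B6.129 line by its name, and whether the genotypes differed in strain background at this complex was not tested.

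For Nr3c1 the closest genes were Phf12 (0.0261), Map3k7cl (0.0282) and Zfp266 (0.0288), and for Nr3c2 they were Nfib (0.0221), Abhd14a (0.0303) and Triap1 (0.0308). The standard deviations of the receptors themselves were 0.0975 and 0.113 on this scale, so these patterns follow small differences between mice. None of these 6 genes was called by edgeR.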

How the data were processed

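The authors aligned 75-base single-end reads of poly(A) RNA to mm10 with STAR, per the methods and the submitters' processing notes, and deposited estimated counts per gene without normalization. The counting tool and annotation are not given in the sources used here. The paper's methods name an NEBNext Ultra II RNA kit, while its list of resources names an NEBNext Ultra DNA kit. Neither is named as directional, so strand was taken as not marked. A deposited table of the authors' DESeq2 fold changes and p-values was not used. The 6 count columns were matched to the mice by the numbers that open the sample titles. Dates stood in place of 25 symbols, and 2 symbols occur again.

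In R 4.3.3, edgeR 4.0.16 was run on the rounded estimated counts with TMM scaling, its own expression filter and the quasi-likelihood test. P-values were adjusted after Benjamini and Hochberg over the 12828 genes left, and an adjusted p under 0.05 was called. Alternatives were limma 3.58.1 (voom), DESeq2 1.42.0, other scalings and filters, the replicate number as a block and each mouse left out. On simulated data of 12708 genes with 200 changed, edgeR called 194 of these and 10 others. The simulation placed large fixed changes in well counted genes and gave each gene only the spread usual for its level. The share called there is therefore not the sensitivity in the mice. TPM used the longest protein-coding transcript of GENCODE vM21 (GRCm38). Lengths were found for 99.7% of the counts, and coordinates come from the same annotation. A floor of 3 counts and 95% intervals were used. The quasi-likelihood test gives no SE. The SE of a log2 fold change was taken as its absolute value over the square root of the test's F statistic. The confidence intervals of fold changes were built from this SE with a t distribution and are approximate.

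Named genes are the 5 receptors, Kdm1a, Acta1, listed genes past the threshold, up to 3 per pathway list by level and by change at a mean of at least 5 CPM, 5 neighbours of Esr1 on each side, and 3 like genes per receptor. Other genes named in the text (unadjusted p under 0.05, Pdzk1 and the genes given for their role) were chosen after their values were seen. The members and lists were chosen with earlier results of these data known. The labels and methods give 3 mice per genotype. No 2 libraries were alike within sampling noise (chi-square per gene at least 9.88 over 15 pairs). Replicate numbers are shared by the genotypes, the labels do not say whether they pair the mice, and they were not treated as pairs. Some genes of the lists and some sequences are not reported here.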

Additional observations from a re-analysis of the deposited data

How the results depend on the processing

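The log2 fold change of Esr1 stayed past the threshold in all 14 alternative fits, from 4.03 to 4.32 when 1 mouse was left out and with an adjusted p of at most 0.00891, reached with the replicate block. The values of Nr3c1 and Nr3c2 lay near 0 and changed sign without passing the threshold. Nr3c1 was -6.8e-05 with limma voom, -0.002 with upper quartile normalization, -0.024 with the library size alone and -4.7e-05 with the replicate block, and ran from -0.079 (without LSD1-mKO replicate 1) to 0.062 over the fits without 1 mouse, with -0.045 without WT replicate 1. Nr3c2 ran from -0.12 to 0.03 with 1 mouse left out and was 0.032 without LSD1-mKO replicate 1. Esrra also changed sign, at 0.083 without WT replicate 1 and 0.030 without LSD1-mKO replicate 1. Kdm1a kept its direction, from -1.30 to -1.17 with 1 mouse left out, and lost the call without WT replicate 2 or any of LSD1-mKO replicates 1, 2 and 3, and with the replicate block (-1.23, adjusted p = 0.299). The genes called higher numbered 33 with DESeq2, 2 with voom, 8 when low counts were kept, and 1 or 2 in the fits without 1 mouse (2 without WT replicate 1). Those called lower numbered 9 with DESeq2, 3 when low counts were kept, 0 with the replicate block, and 0 or 1 in the fits without 1 mouse. Of the pathway list genes 1, Esrrg, was called with DESeq2 (0.97) and with no filter (0.98), and 0 otherwise. With the coding length, Esr1 was at 13.3 TPM in WT and 233 in LSD1-mKO and Nr3c1 at 56.1 and 55.4. The cause was not tested.

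The correlations of same-numbered mice after removing the group means were -0.364, -0.0968 and -0.146 over 12828 genes. With 1 pair per replicate number, these values show no likeness of same-numbered mice but cannot exclude that they were paired. Depth limits Esr2 and Pgr, which were not tested.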
